A study of Sus scrofa with 32 samples.

Results

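TRPV5, TRPV6, S100G, ATP2B1, ATP2B4, SLC8A1 and STC1 are the 7 genes of calcium transport described here, out of 30185 genes in the count tables. They were matched by pig gene symbol to NCBI gene identifiers, and all 7 were found. They were chosen by their CPM in pregnant against cyclic gilts in each compartment, so the values of that contrast are given for them as a description, without a test. The gilts are named here by C for cyclic or P for pregnant and their number in the labels. Their levels in the compartments, averaged over both states, were tested. That is another contrast of the same libraries. The choice was made with earlier results of these data known, so the test is not independent of it.

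The endometrium is the lining of the uterus, and it was separated by laser capture microdissection into 4 compartments, the luminal epithelium (LE), the glands (GE), the vessels of the blood (BV) and the stroma (S). The libraries came from 8 gilts, of which 4 were pregnant and 4 were nonpregnant (called cyclic), on Day 14. All gilts were prepuberal and had been synchronized with eCG and hCG. The pregnant gilts were inseminated with semen of a boar and the cyclic gilts with the supernatant of that boar's semen. Tissue of the pregnant gilts was taken from the hyperemic zones at which the conceptuses attach, so their libraries describe attachment sites and not the whole horn. Each gilt gave 1 library per compartment, except that the GE library of P41 had been taken out of the processed data by the submitters and was not analysed here, which left 31 libraries with n = 3 in pregnant GE and n = 4 in every other group. In bulk captures, fewer cells of a type and less RNA per cell cannot be told apart.

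The libraries held 2415216 to 7081556 counts (median 3624021). CPM (counts of a gene scaled to a common library size) was computed after a normalization over all libraries. The markers set LE and GE apart from BV and S, while BV and S shared much of theirs. The summed level of 9 epithelial markers was 2316 to 3343 CPM in LE and 1504 to 1836 CPM in GE, against 2.54 to 299 CPM in BV and 11.6 to 454 CPM in S. The gland markers FOXA2 and SPDEF together reached 96.0 to 331 CPM in GE and at most 14.9 CPM in LE. The 8 smooth muscle markers summed to 1203 to 18493 CPM in BV and 538 to 1342 CPM in S, and the 9 endothelial markers to 1586 to 3144 CPM in BV and 571 to 2916 CPM in S. All captures also held fibroblast RNA, with 7 markers summing to 4086 to 16467 CPM in LE and 2864 to 7496 CPM in GE, below the 24989 to 90776 CPM in BV and the 36679 to 105893 CPM in S. BV and S thus overlapped in all 3 of these lists. For smooth muscle the overlap was between states only, and within each state every BV library was above every S library.

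Epithelia that carry calcium from their lumen to the blood, as in the gut and the kidney, let it in through apical channels, ferry it through the cytosol on a binding protein and push it out across the basolateral membrane. TRPV5 and TRPV6 are the calcium-selective entry channels, S100G (a calbindin) is the ferry, and the pumps ATP2B1 and ATP2B4 and the sodium-calcium exchanger SLC8A1 do the extrusion. STC1, stanniocalcin, is a secreted glycoprotein hormone first known from fish, where it lowers calcium uptake. In the pig, calcium in the uterine lumen is known to increase around the time of conceptus elongation.

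How far TRPV5 and TRPV6 can be told apart by counting depends on their sequences, so they are shown before the values. In Sscrofa11.1, TRPV5 (gene 100622162) lies at chr18:7285186-7341965 and TRPV6 (gene 100171400) at chr18:7332253-7348383, both on the plus strand, and the gene models overlap by 9713 bases. Their exons share 86 bases at chr18:7341880-7341965, none of them coding in TRPV5. These are 2.11% of the exon bases of TRPV5 and 2.86% of those of TRPV6. A comparison of the reference transcripts with 16 and 15 exons found 13 exon pairs of equal length. These pairs hold 1767 bases, of which 85.3% are identical, and identity ran from 57.1% to 98.9% between pairs. The most alike pair is exon 7 of TRPV5 at chr18:7290938-7291113 and exon 6 of TRPV6 at chr18:7343290-7343465, with 2 differing bases of 176. A pair that differs more is exon 10 of TRPV5 at chr18:7307977-7308063 and exon 9 of TRPV6 at chr18:7344692-7344778, with 22 differing bases of 87. Both pairs are printed to show how little sequence separates the genes in the first and how much in the second. The reference sequence is RefSeq's, 5′ to 3′ on the plus strand, and capitals mark the bases at which the genes differ.
TRPV5 exon 7: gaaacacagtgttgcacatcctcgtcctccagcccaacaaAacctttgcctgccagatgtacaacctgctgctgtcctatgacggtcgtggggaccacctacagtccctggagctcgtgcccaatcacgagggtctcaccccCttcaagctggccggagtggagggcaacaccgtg
TRPV6 exon 6: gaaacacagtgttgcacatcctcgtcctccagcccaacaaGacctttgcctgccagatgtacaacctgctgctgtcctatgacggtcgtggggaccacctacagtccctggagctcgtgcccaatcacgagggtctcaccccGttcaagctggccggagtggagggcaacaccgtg
TRPV5 exon 10: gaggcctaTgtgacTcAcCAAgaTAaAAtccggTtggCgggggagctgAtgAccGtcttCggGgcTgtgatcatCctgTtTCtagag
TRPV6 exon 9: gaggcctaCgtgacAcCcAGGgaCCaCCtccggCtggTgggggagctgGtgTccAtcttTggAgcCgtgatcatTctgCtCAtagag

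The longest run shared by the spliced transcripts was 101 bases, and of the 3784 windows of 50 bases in TRPV5, 116 (3.07%) occurred in TRPV6. Counts of these 2 genes are therefore uncertain where reads fell on the shared stretches. Reads of TRPV6 there could weigh more in TRPV5 in cyclic than in pregnant LE. Cyclic LE had 22 to 25 counts of TRPV5 beside 169 to 468 of TRPV6. Their part in the values of TRPV5 was not tested. TRPV6 also shares 740 exon bases (24.6% of its exons) with EPHB6 on the minus strand, and the sources used here do not say whether the counting used strand. EPHB6, an ephrin receptor, was at 37.4 to 123 CPM in cyclic LE and 48.2 to 80.8 CPM in pregnant LE, with overlapping groups. S100G (gene 397265, chrX:13107611-13114213) lies inside CTPS2 on the opposite strand without a shared exon base. ATP2B1 (gene 397636, chr5:92935688-93061406) shares 665 exon bases with LOC106507543 on the opposite strand, which had at most 4 counts in a library. ATP2B4 (gene 100623420) is at chr9:64336354-64445669, SLC8A1 (gene 100622020) at chr3:99823503-100257306 and STC1 (gene 100125345) at chr14:7952175-7961365.

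**Figure D1:**
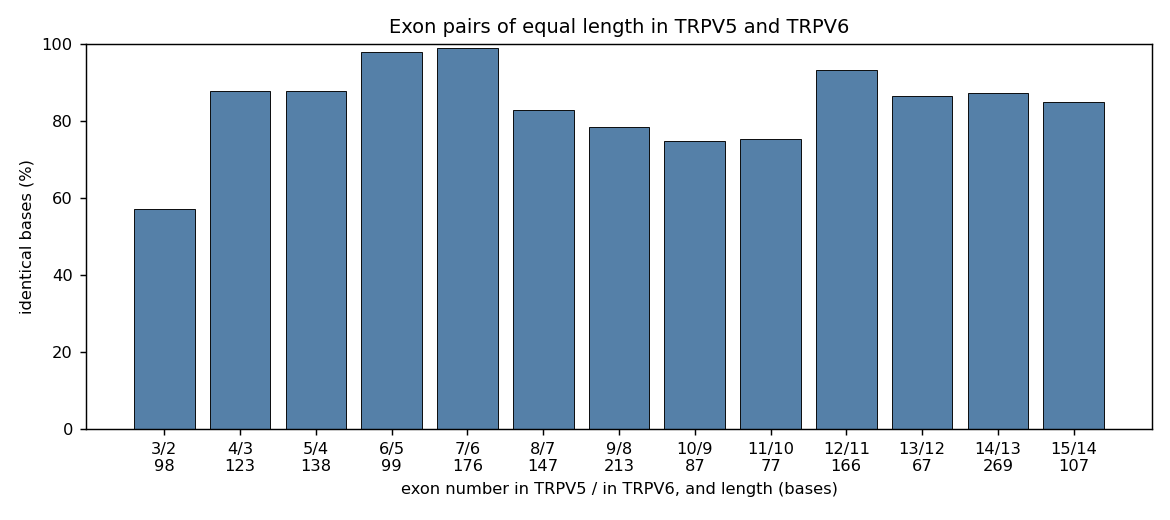
Identical bases in percent (vertical axis) for the 13 exon pairs of equal length in TRPV5 and TRPV6, with exon numbers and lengths in bases on the horizontal axis. The bars run from 57.1% for exons 3 and 2 to 98.9% for exons 7 and 6.

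In LE both entry channels and STC1 stood far higher in pregnant gilts, while the extrusion genes ATP2B4 and SLC8A1 stood lower. TRPV5 averaged 280 ± 63.9 CPM (SD, n = 4) in pregnant and 5.69 ± 0.521 CPM (SD, n = 4) in cyclic LE, TRPV6 1296 ± 266 against 63.0 ± 29.1 CPM, and STC1 518 ± 168 against 37.0 ± 34.4 CPM. ATP2B4 averaged 111 ± 19.9 CPM in pregnant and 427 ± 191 CPM in cyclic LE, and SLC8A1 50.4 ± 14.3 against 160 ± 113 CPM. For these 5 of the 7 members the groups did not overlap. This was true of 19.4% of the 12002 genes of the filtered LE table (10.3% with the pregnant libraries above and 9.13% with them below), and nothing is read from the members' share because this contrast chose them.

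In TRPV5, the cyclic LE libraries of C128, C40, C42 and C78 had 22, 23, 22 and 25 counts, or 5.86, 5.0, 6.25 and 5.66 CPM. The pregnant LE libraries of P139, P39, P41 and P43 had 1011, 937, 1459 and 1127 counts, or 259, 297, 207 and 359 CPM. Every pregnant library was thus above every cyclic one, and the cyclic values lay close together. The log2 fold change was 5.63 ± 0.23 (SE).

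TRPV6 was at 54.9, 43.04, 48.0 and 106 CPM in cyclic LE of C128, C40, C42 and C78. In pregnant LE of P139, P39, P41 and P43 it was at 1363, 1356, 919 and 1547 CPM. The groups did not overlap, C78 was the highest of the cyclic gilts, and the log2 fold change was 4.36 ± 0.37 (SE). Per kilobase of exon, TRPV6 was the more abundant channel in both states, with a level of 21.0 ± 9.68 CPM per kilobase against 1.39 ± 0.128 for TRPV5 in cyclic LE and 432 ± 88.7 against 68.6 ± 15.6 in pregnant LE. For every 100 counts of TRPV6 there were 5.34 to 13.02 counts of TRPV5 in the cyclic LE libraries and 19.0 to 23.2 in the pregnant ones, so the counts did not move in a fixed ratio.

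S100G, the cytosolic ferry, did not follow the entry channels in LE. Its cyclic libraries held 4.26, 15.4, 10.8 and 25.8 CPM (C128, C40, C42 and C78) and its pregnant libraries 12.5, 23.7, 9.38 and 7.65 CPM (P139, P39, P41 and P43). The groups overlapped throughout, and the log2 fold change was −0.10 ± 0.54 (SE). Its sign changed in 3 of the 10 alternative fits, so no direction is given for it.

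Of the extrusion genes, ATP2B4 was at 688, 419, 368 and 234 CPM in cyclic LE of C128, C40, C42 and C78 and at 101, 104, 141 and 98.4 CPM in pregnant LE of P139, P39, P41 and P43. All pregnant libraries were below all cyclic ones, with a log2 fold change of −1.92 ± 0.30 (SE). SLC8A1 was at 92.4, 329, 117 and 101 CPM in the cyclic and at 35.04, 68.4, 54.3 and 44.0 CPM in the pregnant LE libraries, in the same order of gilts. Those groups did not overlap either, the log2 fold change was −1.65 ± 0.42 (SE), and C40 stood far above the other cyclic gilts (−1.03 without C40). ATP2B1, the other pump, was at 146, 238, 208 and 249 CPM in cyclic and 131, 123, 181 and 154 CPM in pregnant LE. Its groups overlapped, and the log2 fold change was −0.51 ± 0.21 (SE). Markers of several cell types differed between the states in LE as well. The 9 epithelial markers summed to 2928 to 3343 CPM in cyclic and 2316 to 2645 CPM in pregnant LE, without overlap, and 2 of the 9 were called lower (median log2 fold change −0.43). All 8 endothelial markers tested had a log2 fold change above 0 (median 0.81), none of them called, and the sum of the list was 137 to 764 and 428 to 1074 CPM. The 8 smooth muscle markers summed to 213 to 495 CPM in cyclic and 198 to 268 CPM in pregnant LE, and the 7 fibroblast markers to 4086 to 14370 and 10216 to 16467 CPM. The part of these cell types in the members' values was not tested.

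STC1 was spread widely among the cyclic gilts. It was at 5.59, 35.9, 21.6 and 85.1 CPM in cyclic LE of C128, C40, C42 and C78 and at 571, 521, 692 and 290 CPM in pregnant LE of P139, P39, P41 and P43. The lowest pregnant library was still above the highest cyclic one, and the log2 fold change was 3.79 ± 0.72 (SE), and 4.65 without C78.

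**Figure D2:**
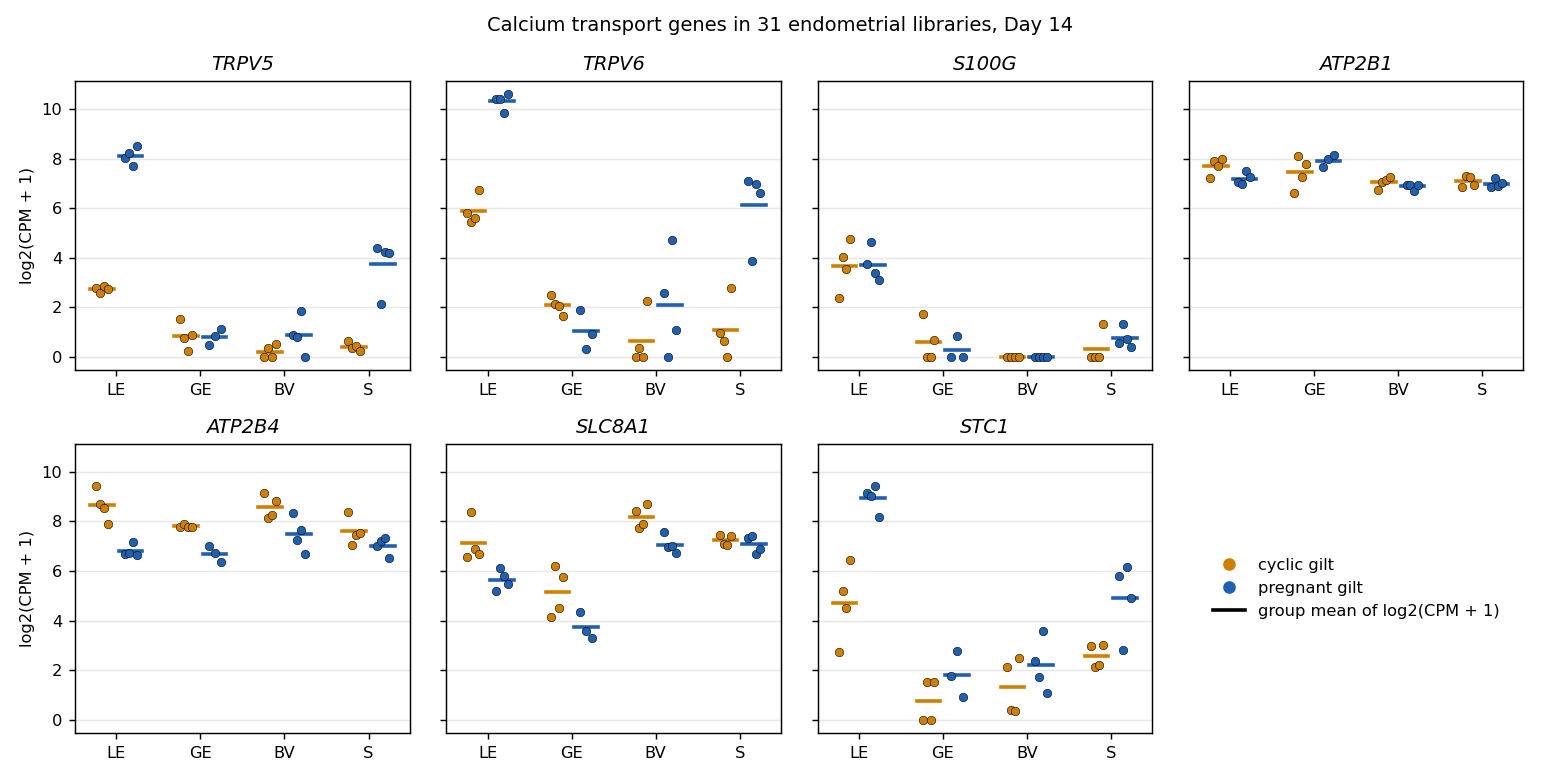
Level of each of the 7 genes as log2(CPM + 1) (vertical axis) by compartment (horizontal axis), 1 point per library, orange for cyclic and blue for pregnant gilts, with a bar at the group mean of the log2 values. TRPV5, TRPV6 and STC1 are highest in pregnant LE, with group means of 280, 1296 and 518 CPM, while the group means of ATP2B1 lie between 117 and 244 CPM in every compartment.

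In S, 6 of the 7 members were in the filtered table, all but S100G. TRPV5 rested on 3, 1, 1 and 1 counts in cyclic S of C128, C40, C42 and C78 and on 86, 9, 55 and 51 counts in pregnant S of P139, P39, P41 and P43. These are 0.577, 0.279, 0.363 and 0.1703 CPM in the cyclic and 20.01, 3.40, 17.9 and 17.3 CPM in the pregnant libraries. TRPV6 was at 0.962, 0.558, 0 and 5.79 CPM in cyclic S and at 135, 13.6, 123 and 95.9 CPM in pregnant S. In both channels all pregnant libraries were above all cyclic ones, which was true of 3.62% of the 11935 genes of the S table (8.81% in either direction), and nothing is read from it. The log2 fold changes were 5.30 ± 0.66 (SE) for TRPV5 and 5.42 ± 0.92 (SE) for TRPV6, which was 7.21 without C78. STC1 was at 6.93, 3.35, 3.63 and 6.98 CPM in cyclic and 54.9, 6.04, 69.4 and 28.8 CPM in pregnant S, with P39 inside the cyclic range and a log2 fold change of 2.90 ± 0.63 (SE). In all these genes P39 was the lowest of the pregnant gilts.

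RNA of epithelium was also found in S, in both states. The 9 epithelial markers summed to 11.6 to 176 CPM in cyclic and 34.0 to 454 CPM in pregnant S, and all 7 markers in the S table had a log2 fold change above 0 (median 0.92, against 0.00 for all genes), none of them called. In pregnant S, TRPV6 reached 9.92%, 1.003%, 13.4% and 6.199% of its level in LE of the same gilt (P139, P39, P41 and P43). The median of the 9 epithelial markers reached 13.1%, 2.04%, 13.3% and 3.90% of theirs. The 2 series were lowest in P39 and highest in P139 and P41. TRPV5 reached 7.74%, 1.15%, 8.65% and 4.81% and STC1 9.62%, 1.16%, 10.04% and 9.95% of LE. For every 100 counts of TRPV6 the pregnant S libraries held 14.6 to 25 counts of TRPV5, beside 19.0 to 23.2 in pregnant LE. Cyclic S of C128 and C78 held marker sums of 176 and 171 CPM with TRPV6 at 0.962 and 5.79 CPM. Pregnant S of P43 held a marker sum of 105 CPM with TRPV6 at 95.9 CPM. LE of these gilts differed too, with TRPV6 at 54.9, 106 and 1547 CPM (C128, C78 and P43). In cyclic S, TRPV6 reached 1.75%, 1.30%, 0% and 5.47% of LE of the same gilt (C128, C40, C42 and C78). The marker medians there were 5.12%, 0.648%, 0.365% and 5.65%. In pregnant BV the markers reached a median of 5.88% to 11.8% of LE and TRPV6 0% to 2.78%. The 9 markers are high in both LE and GE and do not tell these apart. The gland markers FOXA2 and SPDEF summed to 0.283 to 5.69 CPM in cyclic and 8.12 to 24.0 CPM in pregnant BV. In pregnant S they summed to 0.678 to 24.1 CPM and in pregnant GE to 96.0 to 107 CPM. The part of epithelial RNA in the values of S was not tested.

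**Figure D3:**
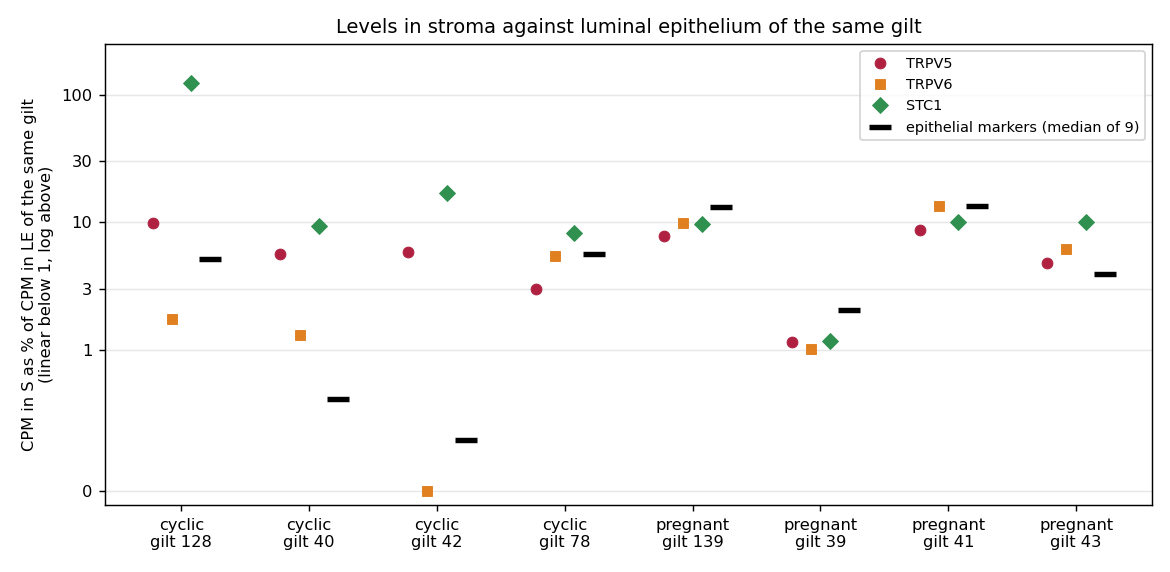
CPM in S as percent of CPM in LE of the same gilt (vertical axis, linear below 1 and logarithmic above) for TRPV5, TRPV6, STC1 and the median of 9 epithelial markers (black dashes), by gilt. In the pregnant gilts the 3 genes and the markers are all lowest in P39, between 1.003% and 2.04%.

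ATP2B4 in S was at 332, 130, 174 and 181 CPM in C128, C40, C42 and C78 and 126, 147, 159 and 90.5 CPM in P139, P39, P41 and P43, a log2 fold change of −0.64 ± 0.29 (SE) with overlapping groups. SLC8A1 (−0.15 ± 0.19) and ATP2B1 (−0.10 ± 0.15) overlapped too and differed by less than their standard errors. The smooth muscle markers summed to 560 to 1342 CPM in cyclic and 538 to 703 CPM in pregnant S, with 1 of 8 called lower, and the endothelial markers to 571 to 1760 and 988 to 2916 CPM, with 8 of 9 above 0 and none called, and their part was not tested.

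In GE only the 3 extrusion genes passed the authors' filter. ATP2B4 was at 219, 237, 217 and 217 CPM in cyclic GE (C128, C40, C42 and C78) and at 126, 105 and 80.9 CPM in pregnant GE (P139, P39 and P43), a log2 fold change of −1.10 ± 0.18 (SE). These groups did not overlap, as was the case for 22.9% of the 11905 genes of the GE table (11.3% with the pregnant libraries below), where 1 group has 3 libraries. SLC8A1 was at 16.8, 71.6, 21.5 and 52.5 CPM in cyclic and 19.2, 11.0 and 8.92 CPM in pregnant GE, with overlap and a log2 fold change of −1.64 ± 0.56 (SE). ATP2B1 went the other way on average, from 186 ± 77.7 to 244 ± 40.5 CPM (log2 fold change 0.38 ± 0.34, SE), with overlap. The leukocyte markers summed to 21.9 to 32.6 CPM in cyclic and 71.7 to 103 CPM in pregnant GE, without overlap, and all 4 tested had a log2 fold change above 0 (median 1.12). All 5 endothelial markers tested were above 0 as well (median 1.07), at sums of 17.1 to 47.7 and 19.6 to 189 CPM. None of these was called, and their part in the values of GE was not tested.

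In GE the entry channels were barely present. In the cyclic and pregnant libraries TRPV6 averaged 3.37 ± 1.07 and 1.30 ± 1.29 CPM and TRPV5 0.917 ± 0.732 and 0.788 ± 0.399 CPM. STC1 averaged 0.933 ± 1.08 and 2.99 ± 2.49 CPM there and S100G 0.749 ± 1.12 and 0.261 ± 0.452 CPM. TRPV6 had 22, 15, 16 and 10 counts in cyclic GE (C128, C40, C42 and C78) and 14, 1 and 3 in pregnant GE (P139, P39 and P43), and TRPV5 had 9, 3, 1 and 4 against 2, 3 and 4. The states overlapped in both genes and no pregnant library was above all cyclic ones. Neither gene was in the GE table, so no fold change was fitted, and small changes were not detectable at these counts. The same pregnant GE libraries carried epithelial markers at a median of 56.7% to 63.8% of LE, and TRPV6 at 0.0192% to 0.201% of LE.

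In BV the filter again passed only the extrusion genes. SLC8A1 was at 339, 212, 239 and 417 CPM in cyclic BV (C128, C40, C42 and C78) and at 187, 123, 127 and 105 CPM in pregnant BV (P139, P39, P41 and P43), without overlap and with a log2 fold change of −1.14 ± 0.25 (SE). Of the 11096 genes of the BV table, 18.2% did not overlap (9.54% with the pregnant libraries below). ATP2B4 was at 559, 282, 300 and 448 CPM in cyclic and 323, 152, 202 and 101 CPM in pregnant BV. There P139 was above C40 and C42, and the log2 fold change was −1.02 ± 0.35 (SE). The smooth muscle markers moved the same way in BV, where all 8 had log2 fold changes below 0 (median −1.49), none of them called, and their sum was 6189 to 18493 CPM in cyclic and 1203 to 7185 CPM in pregnant BV. Their part in the lower SLC8A1 and ATP2B4 was not tested. ATP2B1 differed little, with a log2 fold change of −0.17 ± 0.14 (SE). TRPV6 in BV ranged from 0 to 25.5 CPM with its maximum in P41, TRPV5 from 0 to 2.67 CPM and STC1 from 0.283 to 11.06 CPM, and S100G had 0 counts in all 8 BV libraries.

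**Figure D4:**
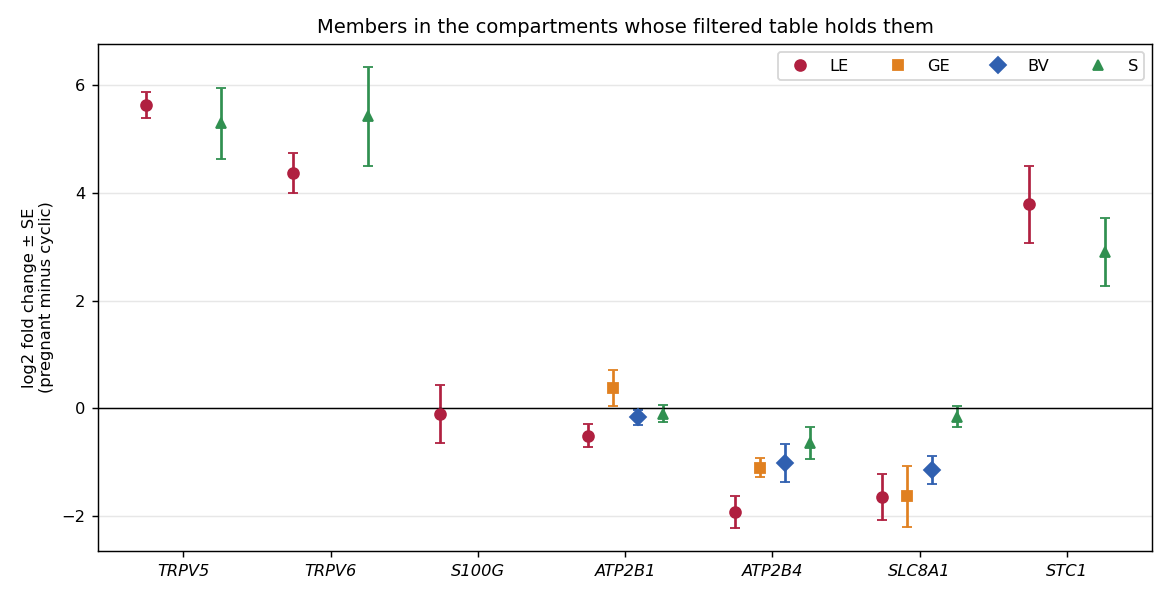
Log2 fold change of pregnant against cyclic gilts with its standard error (vertical axis) for each gene in the compartments whose filtered table holds it, 19 values in all. TRPV5, TRPV6 and STC1 lie between 2.90 and 5.63 in LE and S, and ATP2B4 (−1.92 to −0.64) and SLC8A1 (−1.65 to −0.15) are below 0 in all 4 compartments.

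ATP2B4 and SLC8A1 were the members whose log2 fold change was below 0 in all 4 compartments. SLC8A1 in S was within its standard error (−0.15 ± 0.19). These signs held under RLE scaling, without a filter and with each library left out. The share of all genes with such signs was not counted. Nothing is read from the signs, because this contrast chose the members. The compartments come from the same gilts and are not independent.

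Which compartment carries each gene was tested over the same gilts, with the average of both states compared between compartments. All 7 members differed between compartments in edgeR's quasi-likelihood test at a false discovery rate of 1% (adjusted p from 1.66e-11 for TRPV5 to 9.75e-04 for ATP2B4). So did 75.8% of the 13887 genes fitted, so a difference as such sets no member apart. A gene entered this fit through the filtered table of any compartment. S100G entered through LE alone, where it is high, and therefore had to differ. TRPV5, TRPV6 and STC1 entered through LE and S, the compartments in which their means are highest. Their differences from GE and BV were favoured by that entry, so those found are given as a description. Their averages in LE and S rest mostly on the pregnant libraries, by whose values the members were chosen. LE against S is therefore a description for these genes too. Of the 42 pairs of compartments over the members, 25 were called, 3 of them of S100G. The 25 include the pairs of TRPV5, TRPV6 and STC1 that are given as a description.

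The entry channels, the ferry and the hormone had their highest levels in LE. TRPV5 was above GE and BV by log2 differences of 5.58 ± 0.41 and 6.46 ± 0.45 (SE, a description), with LE higher in every gilt. It was above S by 4.16 ± 0.37 (a description), also in every gilt. TRPV6 was above GE and BV by 7.03 ± 0.66 and 7.17 ± 0.64 (a description). It was above S by 4.76 ± 0.55 (a description), and LE was again higher in every gilt. STC1 was above GE and BV by 6.16 ± 0.58 and 5.52 ± 0.53 and above S by 3.17 ± 0.45 (a description). The exception was C128, in which S held 6.93 and LE 5.59 CPM. Without C78 or P41 the difference of TRPV6 from BV was 8.25 or 8.08. For S100G, the log2 level in LE exceeded that in GE by 5.03 ± 0.76 and that in S by 4.69 ± 0.68 (SE), given as a description because of how it entered the fit. The first reached 6.26 without P39 and was nearly as high without C128, the second was 6.28 without C78, and without a filter they were 4.91 and 4.66. Against BV, where it had no counts, its mean of 13.7 CPM in LE was at least 109-fold higher, taking a floor of 3 counts over the 8 BV libraries. In the cyclic gilts alone, TRPV6 was at 43.04 to 106 CPM in LE and at most 5.79 CPM elsewhere.

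Below LE the order of the low compartments was less firm. TRPV5 did not pass 1% between GE and BV, GE and S or BV and S (adjusted p = 0.290, 0.0563 and 0.0472, edgeR), and its means there were 0.861, 0.623 and 7.501 CPM. TRPV6 was lower in GE than in S (log2 difference −2.26 ± 0.71, a description), with S higher in 4 of 7 gilts. The call of this pair was lost when C128, C40, C78, P139 or P43 was left out, with log2 differences from −2.56 to −1.46. BV and S did not pass 1% for TRPV6 (−2.40 ± 0.71, adjusted p = 0.0255, edgeR), except without P41. STC1 was higher in S than in GE (log2 difference of GE minus S −2.996 ± 0.60) in all 7 gilts. It was higher in S than in BV (BV minus S −2.35 ± 0.55) in all 8 gilts, and both are a description. The first was −3.64 without P39. The call of BV against S was lost without C40, C42, C78, P139, P41 or P43, at log2 differences of BV minus S between −2.57 and −2.18. Epithelial markers were in S as given above, and their part in these differences was not tested.

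The extrusion genes had another distribution, and each its own. SLC8A1, the exchanger that muscle cells are known for, averaged 219 ± 111 CPM in BV, 145 ± 27.3 in S, 105 ± 95.0 in LE and 28.8 ± 23.8 in GE (SD over 7 or 8 libraries of both states). BV was above LE in 7 of 8 gilts (LE minus BV −1.24 ± 0.26, adjusted p = 3.69e-04, edgeR). BV and S did not pass 1% (log2 difference 0.48 ± 0.25, adjusted p = 0.231, edgeR), nor did S and LE (LE minus S −0.76 ± 0.26, adjusted p = 0.0151, called without C40). GE was below each of the other compartments, with log2 differences of 2.02 ± 0.29 for LE minus GE, −2.77 ± 0.30 for GE minus S and −3.25 ± 0.30 for GE minus BV (adjusted p = 7.73e-06, 5.71e-08 and 8.34e-09, edgeR), in 7 of 7 gilts each.

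ATP2B1, the housekeeping pump of most cells, averaged 211 ± 67.2 CPM in GE, 179 ± 48.4 in LE, 132 ± 17.9 in S and 125 ± 16.6 in BV. GE and LE did not pass 1% (adjusted p = 0.111) and neither did S and BV (adjusted p = 0.733, edgeR). GE was above S by 0.66 ± 0.13 and above BV by 0.73 ± 0.13 (log2, adjusted p = 1.22e-04 and 3.55e-05, edgeR), in 6 of 7 gilts each. LE was above S by 0.41 ± 0.12 and above BV by 0.49 ± 0.12 (adjusted p = 0.00681 and 0.00185, edgeR), in 7 and 8 of 8 gilts. The call against S was lost without C42, C78, P139, P41 or P43 (log2 difference 0.31 to 0.43), and that against BV without P41 (0.40).

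ATP2B4 averaged 296 ± 152 CPM in BV, 269 ± 211 in LE, 172 ± 64.9 in GE and 167 ± 72.6 in S. LE did not pass 1% against BV, GE or S (adjusted p = 0.117, 0.0520 and 0.0373, edgeR), nor GE against S (adjusted p = 0.976). BV was above GE in 7 of 7 gilts (GE minus BV −0.76 ± 0.19) and above S in 8 of 8 gilts (0.75 ± 0.18, log2, adjusted p = 0.00111 and 0.00585, edgeR). The first call was lost without P139 (GE minus BV −0.57) and the second without C40, C42, C78, P139, P39, P41 or P43 (log2 difference 0.57 to 0.83). These counts include S100G, TRPV5, TRPV6 and STC1, with the limits of entry and choice given above. Over the members, LE differed from GE in 5, from BV in 6 and from S in 5 of 7, beside 41.4%, 49.2% and 50.6% of all genes. GE differed from BV in 3 and from S in 4, beside 58.3% and 59.3%, and BV from S in 2, beside 7.19%.

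Over the 31 libraries, the log2 level of TRPV6 was most like that of TRPV5 (Pearson r = 0.95 on log2(CPM + 1)), with MUC4 next (0.95). TRPV5 was most like LOC100156854 (0.96), with CA3 also among its 3 highest (0.95), and STC1 most like SERPINB7 (0.95), LOC100156854 (0.95) and MUC4 (0.94). MUC4 is a membrane mucin, CA3 a carbonic anhydrase and SERPINB7 a serpin. S100G was closest to TCTN3 (0.95), SLC16A6 (0.92) and SGPP2 (0.92), and SLC8A1 to SLC35B4 (0.90), OLFML2A (0.90) and EMP1 (0.89). ATP2B1 and ATP2B4 had weaker matches, LOC110257452 (0.85), EDRF1 (0.84) and PRPF4 (0.84) for the first and SPAG7 (0.81), IPO8 (0.81) and CRYAB (0.80) for the second. Among the members, r was 0.92 both for STC1 with TRPV5 and for STC1 with TRPV6, 0.77 for S100G with TRPV6 and 0.55 for ATP2B4 with SLC8A1. The libraries share gilts, compartments and states, and these values describe likeness only.

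The rest of the calcium machinery was taken as 111 other genes in 7 role groups, of which 109 were in the tables. In LE none of the 72 tested was called between pregnant and cyclic gilts, at a false discovery rate of 1% that called 3.32% of all genes of the table. DESeq2 called 6 of them (11.2% of all genes) and edgeR's robust GLM 7 (11.8% of all genes), and 23 had an unadjusted p under 0.05, as had 26.9% of all genes. By the smallest p, MCU, the pore of the mitochondrial calcium uniporter, had a log2 fold change of −1.24 ± 0.25 (adjusted p = 0.0141, edgeR's quasi-likelihood test). Its LE levels were 105, 54.8, 60.7 and 48.7 CPM in the cyclic and 26.6, 25.02, 27.0 and 33.4 CPM in the pregnant gilts. FKBP4, an immunophilin that binds TRPV5, stood at −0.93 ± 0.20 (adjusted p = 0.0178) and BSG, a chaperone of membrane transporters, at 0.57 ± 0.14 (adjusted p = 0.0281, same test), each without overlap. Leaving out C128 called MCU.

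**Figure D5:**
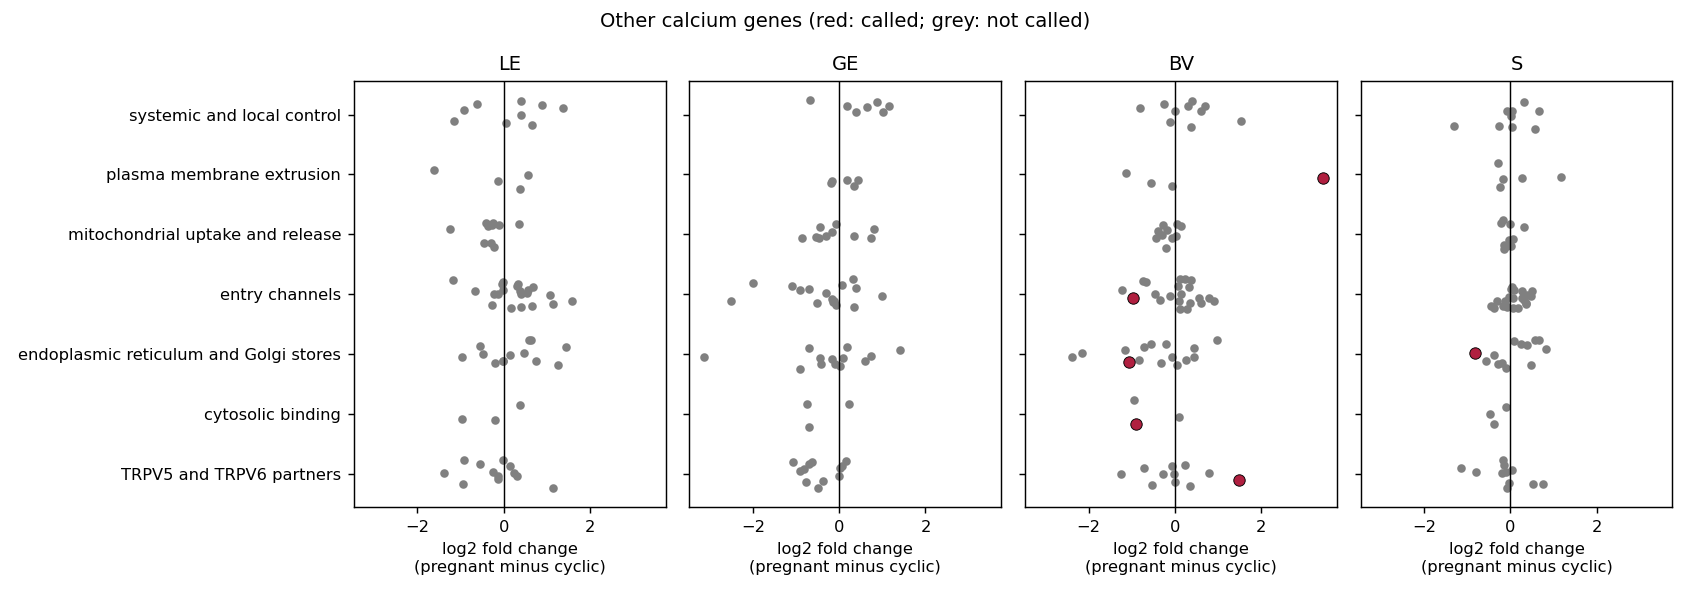
Log2 fold change of pregnant against cyclic gilts (horizontal axis) of the other calcium genes by role group (vertical axis, points spread within a row), 1 panel per compartment, red where called. No gene is red in LE or GE, 5 are in BV and 1 is in S.

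In GE none of 66 was called (0.748% of all genes were), while DESeq2 called 4 and the robust GLM 3, each beside 6.66% of all genes, and 18 had an unadjusted p under 0.05, as had 23.0% of all genes. HSPA5, a calcium-binding chaperone of the endoplasmic reticulum, had the smallest p there (log2 fold change −0.90 ± 0.21, adjusted p = 0.0657, edgeR). VDAC1, a channel of the outer mitochondrial membrane, stood at −0.86 ± 0.20 (adjusted p = 0.0704, edgeR). TRPM4, a cation channel opened by calcium, was at 54.4, 13.1, 24.1 and 14.8 CPM in cyclic and 6.27, 2.61 and 5.05 CPM in pregnant GE (log2 fold change −2.50 ± 0.59, adjusted p = 0.0690, edgeR). It was the only 1 of 84 other calcium genes whose effect of pregnancy differed between compartments at a false discovery rate of 1% (adjusted p = 0.00702, quasi-likelihood interaction test of edgeR), where 1.94% of all genes did. Its fold changes elsewhere were 0.40 ± 0.22 in LE, 0.29 ± 0.20 in BV and −0.09 ± 0.29 in S. The fold change in GE was −1.90 without C128, and the interaction was not called without C40, C42, P139, P39 or P43.

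In BV 5 of 74 were called, beside 1.86% of all genes, and 4 of them are described. DESeq2 called 14 (8.52% of all genes) and the robust GLM 15 (11.0%). HSPA5 fell from 414 ± 25.5 to 197 ± 15.6 CPM (log2 fold change −1.07 ± 0.12, adjusted p = 0.0130, edgeR) and CACNA2D1, a subunit of voltage-gated calcium channels, from 290 ± 51.8 to 148 ± 10.5 CPM (−0.97 ± 0.15, adjusted p = 0.0135). SLC24A4, an exchanger that moves calcium out against sodium and potassium, rose from 9.33 ± 9.41 to 101 ± 60.0 CPM (3.43 ± 0.62, adjusted p = 0.0169). SLC9A3R1, a scaffold of apical membranes, rose from 5.20 ± 0.299 to 14.5 ± 4.31 CPM (1.48 ± 0.27, adjusted p = 0.0172). Each of the 4 was past the full range of the other state in all 4 pregnant gilts. Both genes that rose had higher levels in the epithelia than in BV, with means of 512 CPM in LE and 1118 CPM in GE for SLC24A4 and 42.1 and 52.9 CPM for SLC9A3R1, and the epithelial markers of BV summed to 2.54 to 48.6 CPM in cyclic and 160 to 299 CPM in pregnant gilts. All 6 epithelial markers in the BV table had a log2 fold change above 0 (median 2.95), with 1 of them called, and their part was not tested. The smooth muscle markers moved with HSPA5 and CACNA2D1, as given above, and their part was not tested either.

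Single libraries decided some of these calls. HSPA5 in BV was called whichever library was left out. CACNA2D1 was not called without P43 (−0.93). SLC24A4 was not called without C128, C42, C78, P39, P41 or P43 (2.92 to 3.59) and stood at 4.46, still called, without C40. SLC9A3R1 was not called without C128, C40, C42, C78, P139, P39 or P43 (1.30 to 1.57).

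In S, HSPA5 was the 1 gene called of 73, beside 0.293% of all genes, and fell from 334 ± 46.3 to 187 ± 17.8 CPM (log2 fold change −0.83 ± 0.15, unadjusted p under the limit taken from LE, adjusted p = 0.104, edgeR). DESeq2 called 3 (2.60% of all genes) and the robust GLM 4 (3.16%). The call of HSPA5 was lost without any 1 library but that of C78 (−0.89 to −0.75 where lost). KL, klotho, which is known to regulate TRPV5 in the kidney, stood at −1.31 ± 0.28 (adjusted p = 0.114), and S100A10, a partner that brings TRPV5 and TRPV6 to the membrane, at −1.15 ± 0.30 (adjusted p = 0.157, edgeR). KL was at 37.1, 39.3, 43.2 and 23.0 CPM in cyclic and 14.2, 10.2, 11.4 and 21.3 CPM in pregnant S. S100A10 was called without C78.

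In level, 76 of the 84 other calcium genes fitted (90.5%) differed between compartments at 1%, beside 75.8% of all genes. Genes that entered the fit through the filtered tables of only some compartments, such as BSPRY, were favoured to differ by that entry. The counts are therefore a description. Their highest mean lay in LE for 23 genes, GE for 16, BV for 22 and the stroma for 15. The 13 partners of TRPV5 and TRPV6 all differed, with 5 highest in LE, 5 in GE and 3 in S. BSPRY, a protein known to bind TRPV5, had means of 11.5 and 15.9 CPM in the epithelia LE and GE against 1.59 and 0.713 CPM in BV and S. It entered the fit through LE and GE alone, where it is high, so this is a description. SLC9A3R1, which was in all 4 filtered tables, had a like pattern (adjusted p = 6.01e-09, edgeR). Of the other entry channels, 9 of the 20 that differed were highest in BV. CACNA1H, a T-type channel, was at 102 CPM in BV and 91.3 in S against 20.6 in LE and 8.27 in GE (adjusted p = 5.81e-12, edgeR), and PIEZO1, a mechanically gated channel, at 60.7, 47.5, 23.2 and 4.65 CPM in the same order (adjusted p = 8.34e-12). Among the extrusion genes SLC24A4 was highest in GE (adjusted p = 4.65e-08) and BSG in LE at 121 CPM (adjusted p = 8.27e-06, edgeR). Of the stores, RYR2, the calcium release channel of muscle, was at 227 CPM in BV and 208 in S against 45.2 in LE and 27.6 in GE (adjusted p = 3.89e-11, edgeR), and TMBIM6 at 862 CPM in GE and 650 in LE against 348 in BV and 361 in S (adjusted p = 4.41e-11). Of the mitochondrial genes, MICU3 was highest in BV (54.3 CPM, adjusted p = 5.23e-10) and VDAC1 in LE (162 CPM, adjusted p = 2.08e-07, edgeR). Of the binding proteins, CALM3 was highest in S at 99.6 CPM (adjusted p = 4.26e-04, edgeR). Of the regulators, FGFR1 (53.1 CPM, adjusted p = 1.31e-11) and RAMP2 (143 CPM, adjusted p = 1.34e-09, edgeR) were highest in BV.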

How the data were processed

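RNA of the captures of 8 gilts had been made into libraries with the Ovation SoLo kit. Reads were trimmed (Trim Galore), aligned to Sscrofa11.1 (Hisat2), cleared of PCR duplicates (nudup) and counted per NCBI gene (QuasR) by the authors, who deposited whole counts as 1 table of 30185 genes per compartment and a CPM-filtered version of it (12002, 11905, 11096 and 11935 genes in LE, GE, BV and S). Versions are not given in the sources used here. The submitters' processing notes name edgeR. Symbols, positions and sequences come from RefSeq's annotation of Sscrofa11.1. The depth of 2415216 to 7081556 counts limits genes with few counts.

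States were compared within a compartment on the filtered counts by quasi-likelihood in edgeR 4.0.16 (R 4.3.3, TMM scaling). A call in LE needed a Benjamini-Hochberg false discovery rate under 1%, and a call elsewhere an unadjusted p up to 3.28e-04, the limit that this rate set in LE. This way of setting limits is the study's, but its test was edgeR's robust GLM, which is here an alternative. Over all genes of LE the robust GLM called 1411 and the quasi-likelihood test 398. Compartment levels were compared over 31 libraries and 13887 genes with gilt as a block and averaged over states, at 1%. The block rests on the labels, in which a number names a gilt. Deviations from group means correlated at a median of 0.17 between compartments of the same gilt (over 0.1 in 35 of 45 pairs) and −0.05 between gilts of a state. Gilts are the replicates. Scripts were tested on simulated data.

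The members and all lists were chosen with earlier results of these data known. Named were every member, the other calcium genes called (or the 3 with the smallest p where fewer than 3 were called), the 2 genes of each role group with the largest F for level, and the 3 genes with the highest r to a member. OCM and CALCA were not matched. Of the genes this rule names, 2 are not reported here. The leukocyte markers summed to 21.9 to 410 CPM and the red blood cell markers to 1.76 to 1762 CPM over the libraries. Alternatives were DESeq2 1.42.0, edgeR's robust GLM, RLE, other filters, a rate of 5%, no block, and each library or gilt left out.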

Additional observations from a re-analysis of the deposited data

Results flagged for a closer look

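In 12 of 72 groups of 4 libraries checked, a library lay apart from the other 3 by Dixon's criterion. Chance alone meets it in about 1 of 20 groups of independent, normally distributed values. The values here are CPM, some from few counts, and the groups share libraries, so that rate need not hold and no excess is read from the 12. Among the members these were TRPV5 in pregnant S (P39, 3.40 CPM, next 17.3), TRPV6 in cyclic BV (C78, 3.81 CPM from 9 counts, next 0.298) and in cyclic S (C78, 5.79 CPM, next 0.962), and S100G in cyclic S (C78, 1.53 CPM from 9 counts, the others at 0). Further members were ATP2B1 in pregnant BV (P41, 102 CPM, next 121), ATP2B4 in pregnant LE (P41, 141 CPM, next 104) and in cyclic GE (C40, 237 CPM, next 219), and SLC8A1 in cyclic LE (C40, 329 CPM, next 117). Of the other calcium genes, they were SLC24A4 in pregnant BV (P43, 191 CPM, next 74.5), HSPA5 in cyclic GE (C42, 522 CPM, next 377), FKBP4 in cyclic LE (C40, 104 CPM, next 84.3) and SLC9A3R1 in cyclic BV (C42, 5.65 CPM, next 5.07). C78 was the high library in 3 of these groups, all of them with genes that are highest in LE. Its S library held epithelial markers at a median of 5.65% of its LE, beside 0.365% to 5.12% in the other cyclic gilts. The summed markers in S were at 171 CPM in C78 and 176 CPM in C128. In that S library of C128, TRPV6 was at 0.962 CPM and S100G had 0 counts. LE of C128 held 54.9 CPM of TRPV6 and 4.26 CPM of S100G (16 counts), beside 106 and 25.8 CPM in C78. As shares of LE, S of C78 held 5.47% of TRPV6 and 5.94% of S100G, and S of C128 1.75% and 0%. In BV, C78 had a higher median share of LE than C40 but a marker sum below the 48.6 CPM of C40. TRPV6 in BV of C78 was at 3.59% of its LE, and the markers at a median of 1.27%. The part of epithelial RNA in these values of C78 was not tested.

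The effect of pregnancy on TRPM4 differed between compartments in the interaction test of edgeR's quasi-likelihood fit (adjusted p = 0.00702), with a log2 fold change of −2.50 in GE and of −0.09 to 0.40 elsewhere. The members were not tested for such a difference.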

How the results depend on the processing

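The log2 fold changes of the members moved by less than 1 SD between gilts in all 38 values under RLE or without a filter and in 148 of 149 with a library left out, the exception being TRPV6 in S without C78. Counts of other calcium genes called depended on the test. In LE they were 0 by the quasi-likelihood test, 6 by DESeq2, 7 by the robust GLM, 1 with filterByExpr, 4 at a false discovery rate of 5% and 0 to 1 with a library left out (1 without C128). In GE they were 0, 4 by DESeq2, 3 by the robust GLM and 0 otherwise. In BV they were 5, 14 by DESeq2, 15 by the robust GLM, 11 at 5% and 1 to 6 with a library left out (1 without P43). In S they were 1, 3 by DESeq2, 4 by the robust GLM, 0 without a filter, 0 at 5% and 0 to 2 with a library left out (2 without C78). Other calcium genes with an effect of pregnancy that differed between compartments numbered 1, 6 at 5%, 6 by DESeq2 and 0 to 1 with a gilt left out. Why the tests differ was not tested.

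Members whose level differed numbered 7 in every fit but that of genes in all 4 filtered tables, which holds 3 members (3 differed, with 9 pairs called of 18). Without the replicate block the pairs called were 22, not 25, and the 7 members, 76 other genes and 1 interaction were as with it. The pairs that lost their call without the block were ATP2B1 in LE against S (log2 difference 0.42), ATP2B4 in BV against S (0.77) and STC1 in BV against S (−2.27). Pairs called ranged from 20 to 24 with a gilt left out.

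Signs turned only in pairs that were not called. For ATP2B4, GE minus S (−0.01) became 0.063 under RLE, 0.0103 with genes of all 4 tables, 0.105 without a filter, 0.063 by DESeq2 and −0.11 to 0.15 with a gilt left out. For TRPV6, GE minus BV (0.14) became −0.26 without the block and ranged from −0.34 to 1.48 with a gilt left out (below 0 without C128, C42 or P139), and S100G, GE minus S (−0.35), ranged from −1.52 to 1.49 (above 0 without C78). Depth limits the members with few counts, TRPV5, TRPV6, STC1 and S100G in GE and BV and S100G in S.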
